A study of Bos taurus with 6 samples.

Results

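The ADAM, ADAMTS and matrix metalloprotease (MMP) genes and their tissue inhibitors (TIMPs) were described in blood from the jugular vein of 3 fat-1 transgenic and 3 wild type female cattle. A probe belonged to the set when the array's gene name, or the symbol in brackets in its description, began with ADAM or was MMP or TIMP followed by a number. The rule found 145 usable probes for 63 of the 15991 gene symbols on the array, namely 20 ADAM genes (ADAMDEC1 included), 17 ADAMTS, 4 ADAMTS-like, 18 MMP and 4 TIMP genes. Each gene was read at the probe with the brightest mean signal over all 6 arrays. No probe of MMP8, the neutrophil collagenase, met the rule. fat-1 comes from the worm Caenorhabditis elegans, and its desaturase makes omega-3 out of omega-6 fatty acids, which mammals cannot do. The fat-1 animals were 3.5, 3 and 3 years old and all wild type animals were 3 years old, with 1 array of whole blood RNA for each animal. The promoter of the transgene, the integration site and whether the animals were clones or relatives are not given in the sources used here. No probe was annotated to the transgene.

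These proteases hold a zinc ion in the active site and are made as inactive precursors. ADAMs sit in the cell membrane and cut the outer parts of other membrane proteins free, a step called shedding, while some family members have lost the catalytic site and act in sperm or nerve adhesion. ADAMTS proteins and most MMPs are secreted and cut matrix proteins, and TIMPs block the active site. In blood, neutrophils store or carry MMP8, MMP9 and MMP25, and leukocytes use ADAM10 and ADAM17 to shed receptors and cytokines.

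Values are given as a percentage of the 75th percentile of processed intensity on the same array, so that 100% is a signal brighter than that of most probes. They compare animals at 1 probe and set no gene against another. Where levels are summed over a list, the sum is carried by the brightest probes and is not the level of a cell type. On this scale the dimmest probe well above background stood at 2.48% to 4.28% on the fat-1 arrays and 3.45% to 4.19% on the wild type arrays. A difference is the log2 level in fat-1 animals less that in wild type animals, with the standard error (SE) of a limma fit over all probes. A probe was tested if 3 or more of the 6 arrays had it well above background, and called at an adjusted p under 0.05. All fat-1 arrays lay on 1 slide and all wild type arrays on another, so slide, scan and genotype cannot be told apart. The lowest correlation of 2 arrays within a group, 0.975, was between wild type replicates 2 and 3. The p-values measure the spread between these animals, which may be related.

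The 5 probe sequences below are those on which the descriptions turn, shown 5′ to 3′ as designed, in the files' build Btau_3.1. The ADAMDEC1 probe was well above background in every fat-1 animal and in no wild type animal. The MMP3 pair lies side by side and gave closely similar profiles, and the ADAMTS10 and MMP25 probes differed from the brightest probe of the same gene. No other probe on the array shared a run of 20 bases with any of them. All letters are in lower case, since no motif was searched.
ADAMDEC1, chr8:75192616-75192675, plus strand: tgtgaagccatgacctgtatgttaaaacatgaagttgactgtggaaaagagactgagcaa
MMP3 brightest, chr15:4733287-4734269, plus strand, the 60 bases being split over that span: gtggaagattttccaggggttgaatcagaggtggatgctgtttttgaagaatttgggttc
MMP3 second, chr15:4734307-4734366, plus strand: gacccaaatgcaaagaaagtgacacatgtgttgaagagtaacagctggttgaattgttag
ADAMTS10 second, chr7:15625565-15625624, minus strand: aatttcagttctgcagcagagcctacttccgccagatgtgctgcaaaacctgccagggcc
MMP25 second, chr25:3044690-3044749, plus strand: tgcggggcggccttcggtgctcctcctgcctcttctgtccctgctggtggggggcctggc

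Of the 63 genes, 26 were well above background in all 6 animals and 21 in none. Of all 15991 genes on the array, 10107 were so in all 6 animals and 3737 in none. The 21 included ADAMTS13, the protease that cuts von Willebrand factor, MMP14, the membrane-bound activator of MMP2, and the macrophage elastase MMP12. Each of these was read at its only probe, and 17 of the 63 genes had 1 probe. The number of genes well above background was 29, 32 and 34 in fat-1 animals, against 33, 34 and 31 in wild type animals. The groups overlapped, with means of 31.7 ± 2.52 genes in fat-1 and 32.7 ± 1.53 genes in wild type blood (SD, n = 3 each, exact permutation test, two-sided p = 0.7, with 0.1 the lowest that 3 against 3 can give). At a looser flag of positive and significant signal, 45, 47 and 49 genes were detected in fat-1 blood and 46, 47 and 41 in wild type blood. Of the MMP cluster on chromosome 15, 7 genes had a probe and MMP3 alone was measured. Of 5 neighbouring ADAM genes on chromosome 27, ADAM9 was measured and the sperm genes ADAM2, ADAM18, ADAM32 and ADAM3A were not. In the grid of detection by group, 47 genes were detected in all animals or in none.

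**Figure D1:**
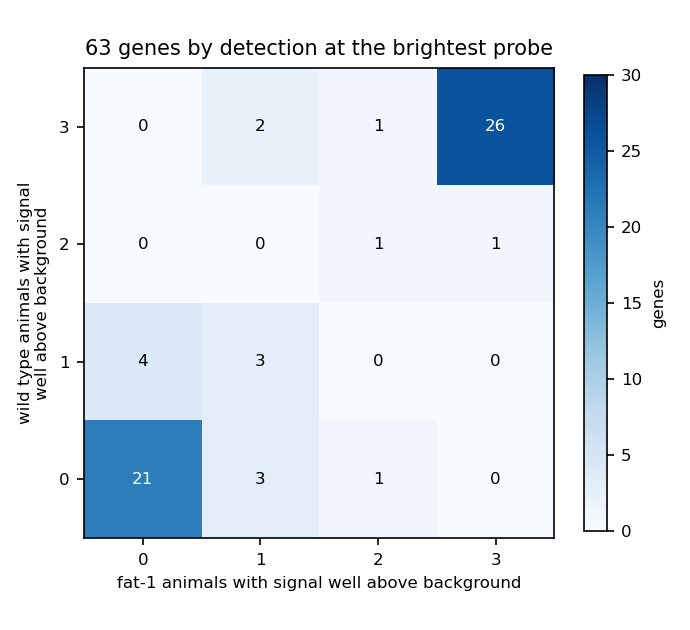
Number of genes by how many fat-1 animals (x axis) and wild type animals (y axis) had a signal well above background at the gene's brightest probe. Most genes lie in the corners, 26 detected in every animal and 21 in none, and no gene was detected in all animals of one group and in none of the other.

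In all, 31 genes were measured (49.2%, against 69.1% of all genes), and none passed the threshold at the brightest probe. Over all probes, 46 of 26822 passed (0.172%). At an unadjusted p under 0.05, 4 of the 31 differed, namely ADAMDEC1 and MMP3 higher in fat-1 blood and MMP15 and ADAM11 lower. Of all 11055 measured genes, 5.52% were higher and 6.48% lower at that p, and the share of the 31 was 6.45% each way, near that of all genes. Of the 31 differences, 11 were above 0 (35.5%, against 42.1% of all measured genes) and 20 below. The median was -0.04, against -0.08 over all measured genes. Under quantile scaling 13 were above 0, and 48.8% of all genes, with medians of -0.09 for the set and -0.01 for all genes. With normexp background correction 10 were above 0, and 34.9% of all genes, with medians of -0.28 and -0.13. In bulk blood, fewer cells of a type and less RNA per cell cannot be told apart.

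ADAMDEC1, a secreted relative of the ADAMs that macrophages and dendritic cells are known to make, had the largest difference among the measured genes. At its brightest probe (chr8:75203817-75203876), it stood at 58.0%, 61.2% and 21.4% in fat-1 animals, against 5.77%, 2.23% and 13.6% in wild type animals. The groups did not overlap, although fat-1 replicate 3 was close to wild type replicate 3. The difference was 2.92 ± 0.65 (SE) with a limma adjusted p of 0.157. At the probe printed above, values were 7.89%, 5.01% and 2.96% in fat-1 animals, against 0.781%, 0.802% and 0.983% in wild type animals. All 3 fat-1 animals were well above background there and no wild type animal was.

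This second probe met the filter through the fat-1 animals alone, so it had to differ, and its limma adjusted p of 0.0467 is given as a description and supports no call. It was 0.102 with no filter, and with all 6 arrays required above background the probe was not tested. The ratio was a bound of at least 1.32-fold, with geometric means of 4.89% in fat-1 and 0.851% in wild type blood. This bound sets the fat-1 mean against the dimmest signal well above background on each wild type array, holds for processed intensity alone and has no error. The fitted difference of 2.52 ± 0.35 (SE) depends on values near background and is not a measured size. With normexp background correction, which adds an offset to every spot, the difference was 0.15 at the second probe and 1.41 at the brightest, and neither passed. The adjusted p at the second probe was also above the threshold when fat-1 replicate 1 (adjusted p = 0.113), fat-1 replicate 2 (0.149), wild type replicate 1 (0.0687), wild type replicate 2 (0.131) or wild type replicate 3 (0.0851) was left out.

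Markers of the cells that make ADAMDEC1 were read beside it. Of 12 measured macrophage and dendritic cell markers, 2 were above 0 (6 under quantile scaling, where the median was -0.02), with a median difference of -0.18 and a summed level of 11700% to 18300% in fat-1 blood and 12600% to 30000% in wild type blood. None of the 12 passed the threshold. APOE, which macrophages make, had 2220%, 2790% and 2360% in fat-1 animals, against 3330%, 5290% and 2810% in wild type animals. Its difference was -0.59 ± 0.27 (SE, limma adjusted p = 0.404). For APOE alone of the 12, every fat-1 animal was below every wild type animal, as for 13.3% of all measured genes. CLEC9A, a receptor of dendritic cells, was well above background in 0 fat-1 and 2 wild type animals and was not tested, with 1.1%, 0.826% and 0.633% in fat-1 animals, against 13.1%, 10.2% and 3.24% in wild type animals. No animal had XCR1 or CD207 well above background. The complement genes C1QA, C1QB and C1QC, which macrophages make, had differences of -0.16 ± 0.42, -0.10 ± 0.48 and -0.16 ± 0.45 (SE). Under quantile scaling these were 0.05, 0.08 and 0.01. The 2 markers above 0 were CD1A, at 0.51 ± 0.31, and MRC1, at 0.31 ± 0.31 (SE). Of 12 monocyte markers 11 were above 0, as were 42.1% of all measured genes. CX3CR1 had 1440%, 1930% and 2210% in fat-1 animals, against 1200%, 1250% and 970% in wild type animals. Its difference was 0.69 ± 0.24 (SE, limma adjusted p = 0.34). Of these 12, 2 did not overlap with fat-1 higher, against 7.16% of all measured genes, and 0 with fat-1 lower. The marker below 0 was CD14, at -0.07 ± 0.26 (SE). Those 12 markers had a median of 0.53 and sums of 26200% to 32700% in fat-1 and 23000% to 27800% in wild type blood. Their part in the ADAMDEC1 result was not tested. ADAM28, a lymphocyte ADAM whose brightest probe (chr8:75155594-75155653) lies 48.2 kb from that of ADAMDEC1, had 4.97%, 5.41% and 2.48% in fat-1 animals, against 2.98%, 2.03% and 1.16% in wild type animals. It was well above background in 2 fat-1 animals and in no wild type animal, and so was not tested.

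**Figure D2:**
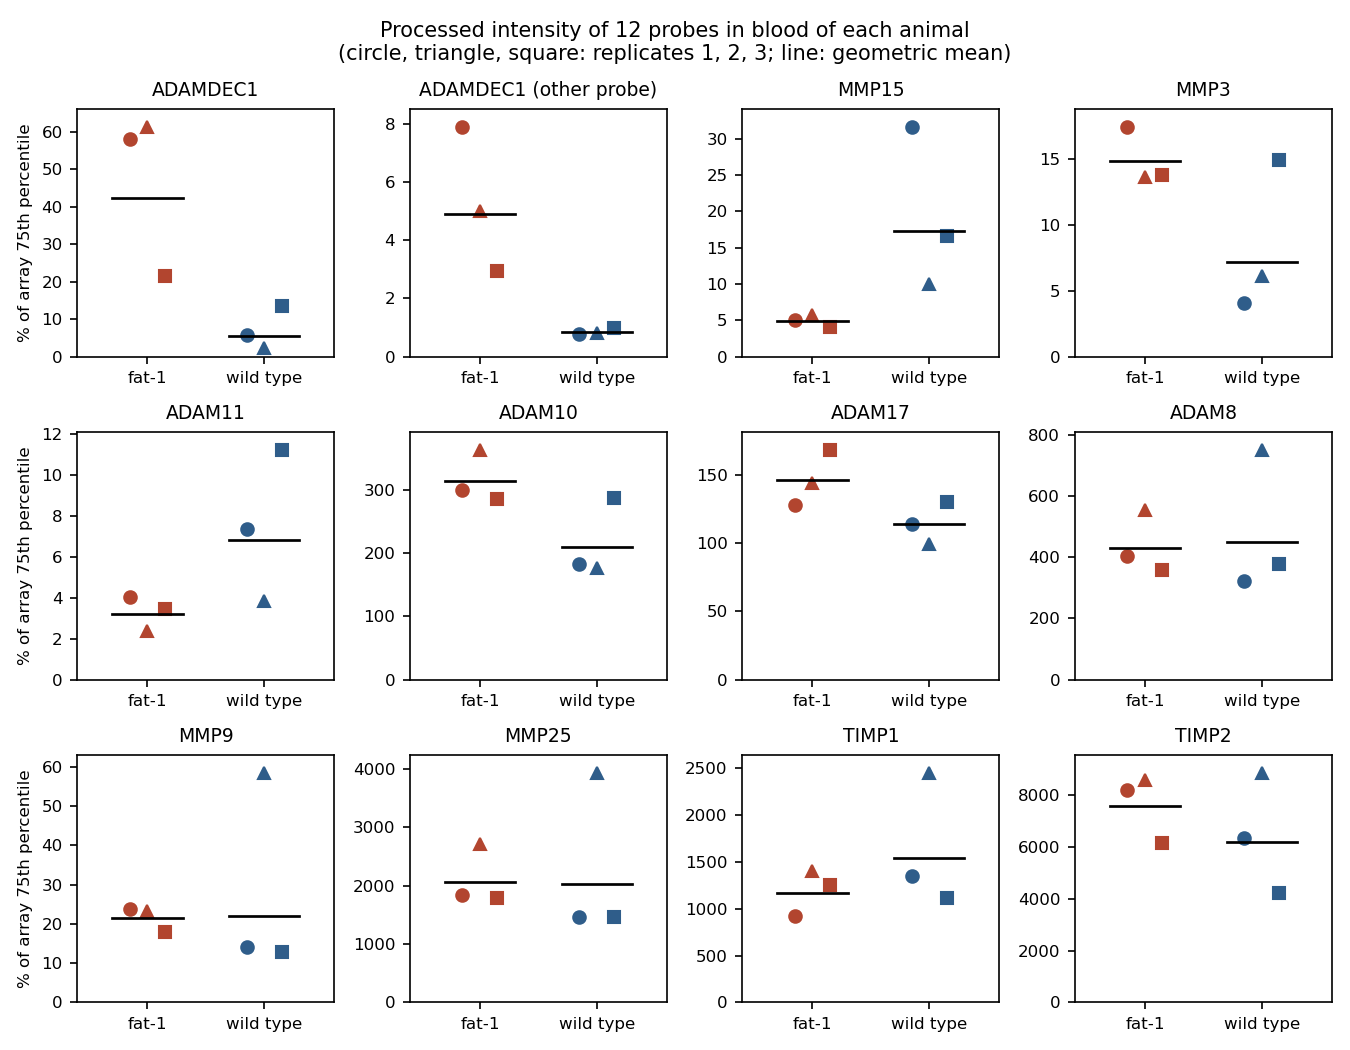
Processed intensity at 12 probes as a percentage of the array's 75th percentile (y axis, linear from 0, own scale in each panel) in each fat-1 and wild type animal, with replicates 1, 2 and 3 as circle, triangle and square and the geometric mean as a line. The groups do not overlap for both ADAMDEC1 probes, the second of which met the filter through the fat-1 animals alone, and for MMP15. Wild type replicate 2 (triangle) is the highest animal for ADAM8, MMP9, MMP25, TIMP1 and TIMP2.

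The membrane sheddases ADAM10 and ADAM17 had differences above 0 at every probe, except for 2 ADAM17 probes with normexp (-0.07 and -0.21) and a dim ADAM17 probe without wild type replicate 2 (-0.26), and none passed the threshold. ADAM10, which sheds Notch and many other receptors, stood at 301%, 364% and 286% in fat-1 animals, against 183%, 177% and 288% in wild type animals (chr10:52203106-52203165). Wild type replicate 3 lay inside the fat-1 range. The difference was 0.58 ± 0.26 (SE, limma unadjusted p = 0.0504, adjusted p = 0.388), and the other probes gave 0.70 and 0.79. ADAM17, the enzyme that releases TNF and L-selectin, had 128%, 144% and 168% in fat-1 animals, against 114%, 99.3% and 130% in wild type animals (chr11:90737159). The difference was 0.36 ± 0.22 (SE, limma adjusted p = 0.467).

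A second ADAM17 probe had 66.6%, 60% and 38.8% in fat-1 animals, against 31.3%, 31.1% and 35.6% in wild type animals. Every fat-1 animal was above every wild type animal at that probe, with a difference of 0.72 ± 0.25 (SE, limma unadjusted p = 0.0208, adjusted p = 0.346). The 5 ADAM17 probes ranged from 0.36 to 0.79. ADAM9, another sheddase, had 0.54 ± 0.29 (SE), but -0.20 with normexp. ADAM8, a sheddase of neutrophils and monocytes, had 403%, 554% and 359% in fat-1 animals, against 322%, 751% and 379% in wild type animals. The wild type animals spanned the fat-1 range, and the difference was -0.06 ± 0.34 (SE). Of the 7 measured ADAMs with a catalytic site or close to one, 5 were above 0, with a median of 0.36.

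Among the ADAMs without a catalytic site, ADAM11 and ADAM23, both known from nerve tissue, were measured. ADAM11 (chr19:45934008-45934067) had 4.01%, 2.36% and 3.43% in fat-1 animals, against 7.37%, 3.83% and 11.2% in wild type animals. It was well above background in 1 fat-1 animal and in 3 wild type animals, and wild type replicate 2 lay inside the fat-1 range. The difference was -1.09 ± 0.39 (SE, limma unadjusted p = 0.0234, adjusted p = 0.352). The other ADAM11 probe, at 0.534% to 2.88%, was well above background in no animal and was not tested. ADAM23 had -0.31 ± 0.24 (SE).

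None of the 7 measured ADAMTS genes passed the threshold, and 5 were below 0 (6 under quantile scaling or normexp). ADAMTS10, a protease that binds the microfibril protein fibrillin, had 10.3%, 11.8% and 36.6% in fat-1 animals, against 21%, 23.2% and 17.9% in wild type animals at its brightest probe. Fat-1 replicate 3 was above every other animal there, and the difference was -0.32 ± 0.45 (SE). At the second probe, which starts 158 bases away on the genome, it had 7.15%, 8.58% and 7.16% in fat-1 animals, against 15.5%, 18.2% and 14.9% in wild type animals. The groups were far apart at that probe, with a difference of -1.09 ± 0.21 (SE, limma unadjusted p = 0.000661, adjusted p = 0.107). It kept values from -1.17 to -1.0 with any 1 array left out.

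ADAMTS17, a relative with a role in microfibrils, stood at 81.3%, 56.3% and 46.2% in fat-1 animals, against 81.2%, 92.8% and 65.9% in wild type animals. The difference was -0.41 ± 0.27 (SE). ADAMTS16 and the aggrecan-cutting ADAMTS5 had -0.51 ± 0.35 and -0.32 ± 0.25 (SE). Of the ADAMTS-like proteins, which lack the protease domain, ADAMTSL4 had 0.21 ± 0.24, ADAMTSL2 -0.32 ± 0.32 and ADAMTSL5 -0.22 ± 0.24 (SE), and none passed.

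**Figure D3:**
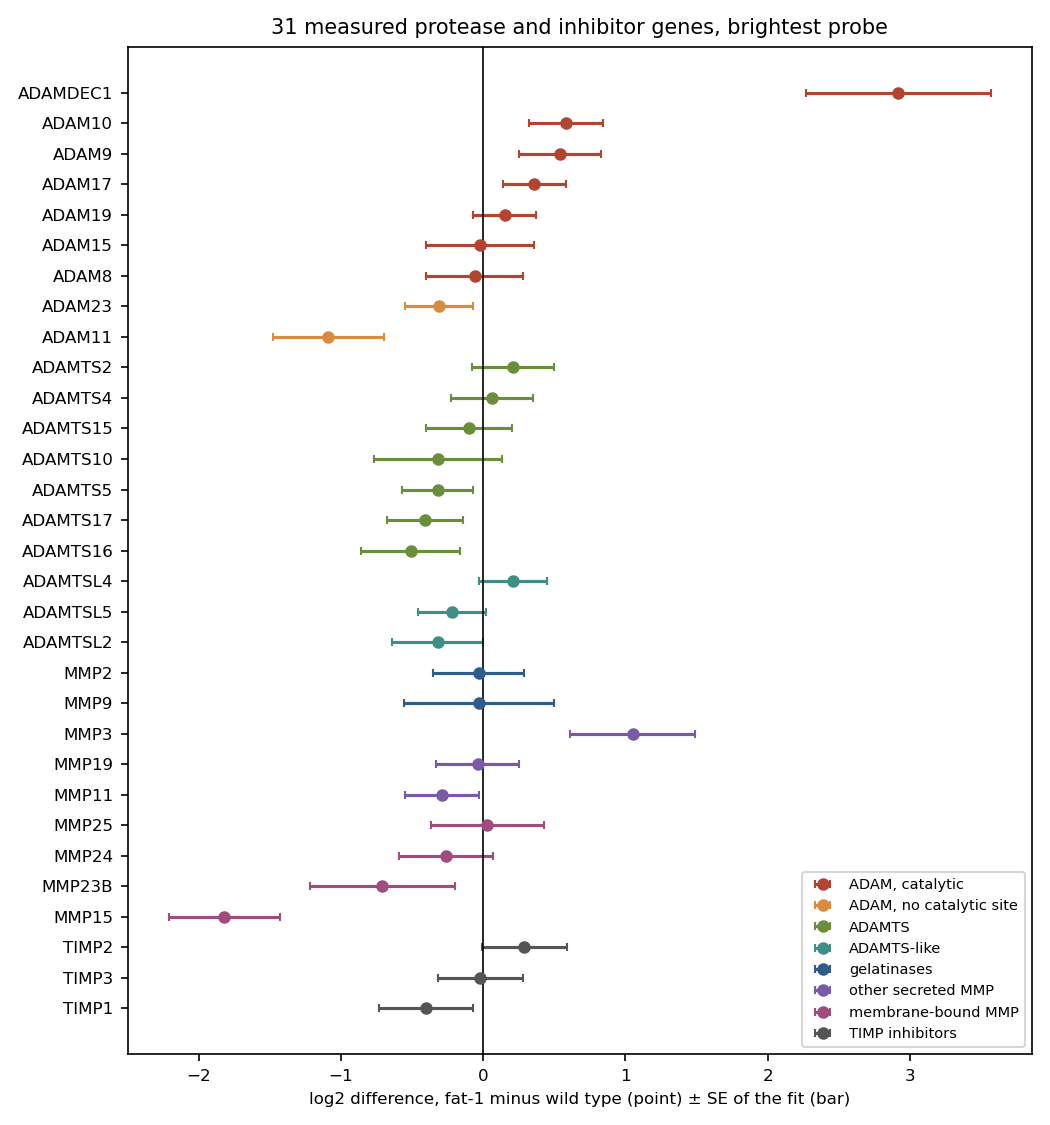
Log2 difference, fat-1 minus wild type (x axis), with the SE of the limma fit as a bar, for the 31 measured genes at the brightest probe, grouped by role and coloured by group. ADAMDEC1 lies farthest to the right at 2.92 and MMP15 farthest to the left at -1.82, and 23 of the 31 genes lie within 0.5 of 0.

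MMP15, a membrane-bound MMP, had the largest difference below 0. It stood at 5.0%, 5.73% and 4.14% in fat-1 animals, against 31.6%, 9.95% and 16.6% in wild type animals (chr18:25958750-25958809). The groups did not overlap, and the wild type animals were widely spread. The difference was -1.82 ± 0.39 (SE, limma unadjusted p = 0.0015, adjusted p = 0.148), and -1.22 with normexp. Of all measured genes, 13.3% did not overlap with fat-1 lower and 7.16% with fat-1 higher, while MMP15 alone and ADAMDEC1 alone did so among the 31. The second MMP15 probe, at 1.07%, 1.99% and 1.25% in fat-1 animals and 5.36%, 2.18% and 1.86% in wild type animals, was well above background in 1 wild type animal and was not tested.

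MMP25, a membrane-bound MMP of neutrophils, differed between its probes. At the brightest probe it had 1840%, 2710% and 1780% in fat-1 animals, against 1460%, 3930% and 1460% in wild type animals, with a difference of 0.03 ± 0.40 (SE). At the second probe it had 124%, 110% and 96.0% in fat-1 animals, against 223%, 200% and 150% in wild type animals. All fat-1 animals were lower at that probe, with a difference of -0.79 ± 0.23 (SE, limma unadjusted p = 0.00923, adjusted p = 0.281). The remaining probe had -0.20 ± 0.34 (SE). The second probe is rich in G and C, at 73.3%, against 38.3% for the brightest, and lies 1880 bases upstream of it. MMP24 and MMP23B had -0.26 ± 0.33 and -0.71 ± 0.51 (SE), the second with 1 fat-1 animal well above background.

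MMP9, the gelatinase of neutrophil granules, had 23.7%, 23.3% and 18.0% in fat-1 animals, against 14.2%, 58.4% and 12.8% in wild type animals (chr13:75526906-75526965). Wild type replicate 2 was far above the other animals, which gave a difference of -0.03 ± 0.53 (SE). Without that animal the difference was 0.67 (limma unadjusted p = 0.0172, adjusted p = 0.434). The 5 measured neutrophil markers were all above 0 (4 with normexp), with a median of 0.17 and sums of 44600% to 64900% in fat-1 and 41600% to 56300% in wild type blood. The 9 measured granule genes had a median of -0.34, with sums of 3390% to 4660% in fat-1 and 3460% to 4350% in wild type blood. Their part in the MMP9 and MMP25 values was not tested. MMP2, the gelatinase of connective tissue, had -0.03 ± 0.32 (SE).

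MMP3, a stromelysin that cuts many matrix proteins and activates other MMPs, had 17.4%, 13.6% and 13.8% in fat-1 animals, against 4.05%, 6.09% and 14.9% in wild type animals. Wild type replicate 3 lay within the fat-1 range and the other wild type animals below it. The difference was 1.05 ± 0.44 (SE, limma unadjusted p = 0.0408, adjusted p = 0.38). The second probe gave the same order of wild type animals, with 13.8%, 11.3% and 11.2% in fat-1 animals, against 2.81%, 4.29% and 11.9% in wild type animals. Its difference was 1.20 ± 0.47 (SE, limma adjusted p = 0.369). With normexp both probes had 0.09. Of 4 MMP3 probes these 2 were measured, and the others, at 0.565% to 1.0%, were well above background in no animal. MMP19, which leukocytes are known to carry, had 403%, 412% and 378% in fat-1 animals, against 462%, 560% and 265% in wild type animals, a difference of -0.04 ± 0.29 (SE). MMP11, known from stromal cells, had -0.29 ± 0.26 (SE).

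No inhibitor passed the threshold. TIMP1, which leukocytes secrete, had 923%, 1400% and 1250% in fat-1 animals, against 1350%, 2450% and 1120% in wild type animals (chrX:56251212). The groups overlapped, with a difference of -0.40 ± 0.33 (SE), and a second probe gave -0.44. TIMP2, which also takes part in the activation of MMP2, had 8190%, 8590% and 6160% in fat-1 animals, against 6350%, 8850% and 4210% in wild type animals. Its difference was 0.29 ± 0.30 (SE), and 0.29 and 0.17 at the other probes. The brightest pair of TIMP2 probes shares 12 bases and is not independent. TIMP3, which binds to the matrix and inhibits ADAM17, had -0.02 ± 0.30 (SE), and TIMP4 was well above background in 1 fat-1 and 1 wild type animal.

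Probes of 1 gene agreed in sign for 12 of the 15 genes with more than 1 measured probe. ADAMDEC1 is among the 12, but the sign of its second probe was set by the filter and adds nothing to that count. ADAMTSL5 had -0.22 at the brightest probe and 1.1 at the other, MMP25 ranged from -0.79 to 0.03 and TIMP3 from -0.04 to 0.15. Of 56 measured probes, 9 had an unadjusted p under 0.05, against 12.8% of all 26822 probes tested. The second ADAMDEC1 probe alone had an adjusted p below the threshold, and it met the filter through the fat-1 animals alone. Probes of 1 gene share its RNA and are not replicates.

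**Figure D4:**
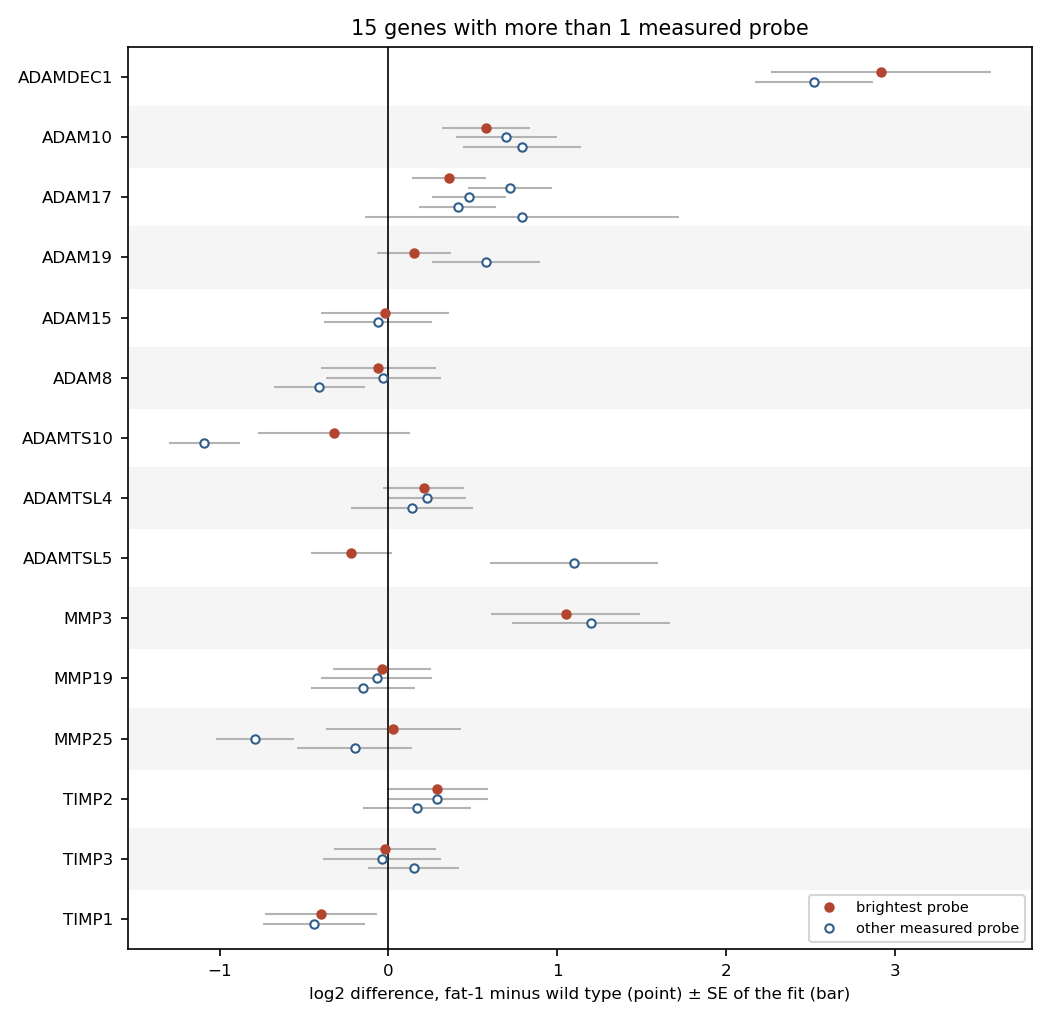
Log2 difference, fat-1 minus wild type (x axis), with the SE of the limma fit as a bar, for every measured probe of the 15 genes with more than 1, the brightest filled and the others open. On this scaling the probes of ADAM10, ADAM17, ADAMDEC1 and MMP3 all lie above 0, and those of MMP25 and ADAMTSL5 lie on both sides. The second ADAMDEC1 probe met the filter through the fat-1 animals alone and had to lie above 0.

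Across animals the genes did not vary evenly. Wild type replicate 2 was the highest animal for 17 of the 31 measured genes, fat-1 replicate 3 for 5, fat-1 replicates 1 and 2 for 3 each, wild type replicate 1 for 2 and wild type replicate 3 for 1. Over all measured genes, wild type replicate 2 was highest for 43.5%. Wild type replicate 3 was the lowest animal for 11 of the 31, and for 17.3% of all genes. The SD over animals was larger in wild type than in fat-1 blood for 20 of the 31 genes, with medians of 0.32 in fat-1 and 0.53 in wild type blood, and for 68.3% of all genes, with medians of 0.20 and 0.31. The hemoglobin gene HBA was also highest in wild type replicate 2 and stood at 33400%, 54700% and 34000% in fat-1 animals, against 3610%, 66600% and 7170% in wild type animals, and its part in these differences was not tested.

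Partners of the proteases were read as lists, and none of their genes passed the threshold. For comparison, 5.52% of all measured genes were higher and 6.48% lower at an unadjusted p under 0.05, and 42.1% were above 0. Of 13 measured regulators of ADAM10 and ADAM17, 1 was higher and 1 lower at an unadjusted p under 0.05, with a median of -0.11. TSPAN15, a tetraspanin that steers ADAM10 to N-cadherin, had 16.8%, 34.2% and 21.1% in fat-1 animals, against 42.1%, 96.4% and 47.1% in wild type animals, a difference of -1.32 ± 0.38 (SE, limma adjusted p = 0.268). SPPL2A, a protease that cuts the stubs left after shedding, had 0.52 ± 0.21 (SE, limma adjusted p = 0.38). RHBDF2, the iRhom that carries ADAM17 to the surface of leukocytes, stood at 570%, 341% and 464% in fat-1 animals, against 640%, 398% and 358% in wild type animals, and was chosen after its values were seen.

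Of 26 measured substrates of shedding, 1 was higher and 3 lower at that p, with a median of 0.07. ICAM1, the adhesion receptor for leukocyte integrins, had 5.93%, 8.83% and 6.83% in fat-1 animals, against 18.9%, 16.5% and 20.6% in wild type animals. The groups were well apart, with a difference of -1.39 ± 0.23 (SE, limma adjusted p = 0.0773). LAG3, a receptor on T cells, and the amyloid precursor APP had -0.97 ± 0.34 and -0.88 ± 0.31 (SE). The growth factor HBEGF had 1.15 ± 0.45 (SE), but -0.25 with normexp, and was well above background in 2 fat-1 animals and 1 wild type animal.

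Of 17 measured activators and other inhibitors, 0 were higher and 3 lower at that p, with 14 below 0 and a median of -0.23. THBS1, a secreted glycoprotein that binds several MMPs, had 109%, 142% and 108% in fat-1 animals, against 202%, 339% and 252% in wild type animals, a difference of -1.12 ± 0.26 (SE, limma adjusted p = 0.169). The plasminogen activator PLAU had 274%, 205% and 343% in fat-1 animals, against 428%, 481% and 565% in wild type animals, a difference of -0.87 ± 0.25 (SE, limma adjusted p = 0.274). COL18A1, the precursor of endostatin, had -1.27 ± 0.34 (SE, limma adjusted p = 0.237). The groups did not overlap for any of these 3 genes, which were named for their small p. In this list 4 of the 17 did not overlap with fat-1 lower, against 13.3% of all measured genes.

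Of 14 measured matrix substrates, 1 was higher at that p and 0 lower, with a median of -0.06. That gene was VWF, the substrate of ADAMTS13, with 8.37%, 4.34% and 25% in fat-1 animals, against 1.98%, 3.36% and 2.29% in wild type animals. No wild type animal had VWF well above background, so it met the filter through the fat-1 animals alone and its place in the count supports nothing. In processed intensity the ratio is a bound of at least 2.62-fold higher, with geometric means of 9.68% in fat-1 and 2.48% in wild type blood (limma adjusted p = 0.266). Of 9 measured platelet markers, 8 were above 0, with a median of 0.46 and sums of 12700% to 20600% in fat-1 and 13200% to 17400% in wild type blood. VWF is 1 of the 8, and had to be above 0, so it adds nothing to that count. The marker below 0 was CLEC1B, at -1.01 ± 0.35 (SE, limma adjusted p = 0.333). Most of the sums came from PF4, at 11800% to 19200% in fat-1 and 12500% to 16600% in wild type blood. The part of platelets in the VWF value was not tested. Of 12 other metalloproteases, 1 was higher and 0 lower at that p, with a median of -0.07. It was the carboxypeptidase CPD, with 48.5%, 52.2% and 68.6% in fat-1 animals, against 35.8%, 28.2% and 28.7% in wild type animals, a difference of 0.86 ± 0.23 (SE, limma adjusted p = 0.238).

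**Figure D5:**
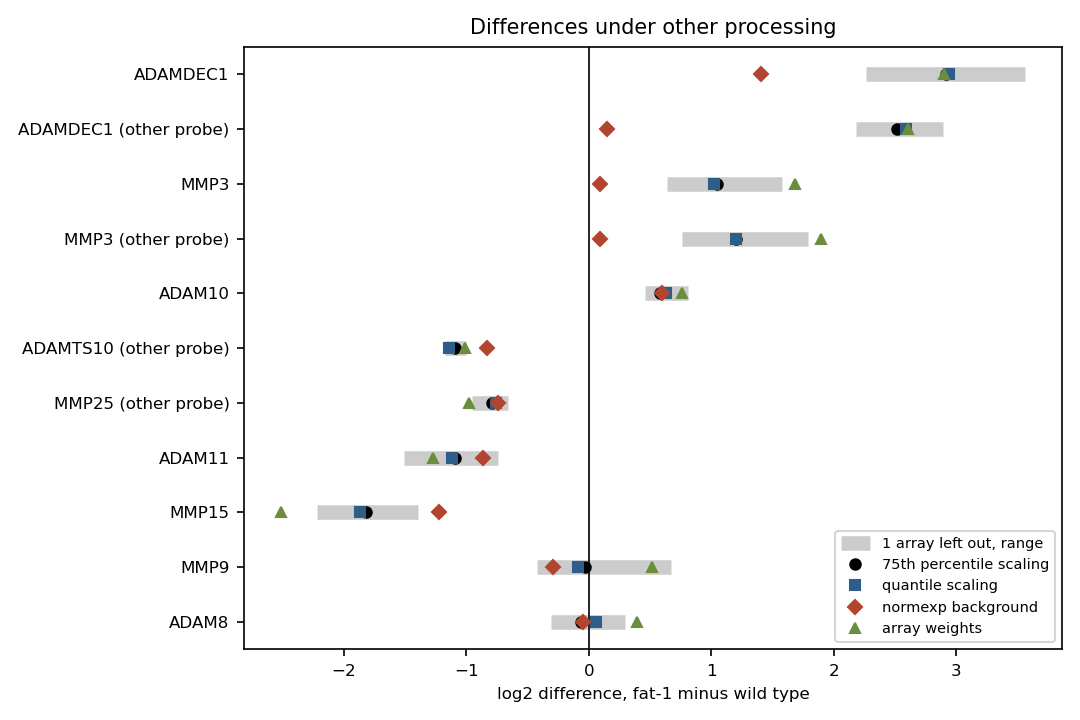
Log2 difference, fat-1 minus wild type (x axis), for 11 probes under 75th percentile scaling (circle), quantile scaling (square), normexp background correction (diamond) and array weights (triangle), with the range over leaving out 1 array as a grey bar. The second ADAMDEC1 probe and both MMP3 probes lie near 0 with normexp, while ADAM10, MMP15, ADAM11 and the second ADAMTS10 and MMP25 probes keep their side of 0 in every setting drawn.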

How the data were processed

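RNA of jugular vein blood was labelled with the dye Cy3 and hybridised to 1-colour Agilent bovine arrays, 1 for each of 3 fat-1 and 3 wild type cattle. The deposited intensity of each spot came from Feature Extraction 10.7.1.1 by Agilent, per the file headers, which record background subtraction, spatial and multiplicative detrending and surrogate values for the dimmest spots. The surrogates narrow the spread between replicates at the dim end. The table of log2 values that the authors deposited has columns with a median of 6.377 each that correlate with their own arrays at 0.999 or above. The step that gave every column the same median is not stated in the labels, and it served as an alternative. Wild type replicate 2 came in a file rounded to 3 significant digits, and names were taken from another array's file.

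Processed intensity was averaged over spots, taken to log2 and reduced by the 75th percentile of each array (714.4, 745.1 and 1066.1 for fat-1, 741.3, 611.0 and 885.9 for wild type). Of 43653 probes, 32 with outlier flags were left out, 1 of them in the set, and the 26822 probes well above background on at least 3 arrays were fitted with lmFit and eBayes of limma 3.58.1 (R 4.3.3), with group as the single term and Benjamini-Hochberg adjustment over all of them. The fit was tested on simulated data. The number of arrays limits the precision. Of the 145 member probes, 139 were found by gene name and 6 by description, and 142 matched the same symbol in a RefSeq table of the assembly ARS-UCD2.0. Probes described in words alone lie outside the rule. Positions are those of the files.

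The members and lists were chosen with earlier results of these data known. Genes named are those past the threshold or at an unadjusted p under 0.05, up to 4 for each role with the smallest p, 14 genes with known roles in blood, and up to 4 of each related list. Genes outside these were picked with their values in view. Alternatives were quantile scaling, normexp (offset 50) on raw intensity, the authors' table, no filter or all 6 arrays above background, an intensity trend, array weights, a replicate block, a mean over the probes of each gene, a looser detection flag, and each array left out.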

Additional observations from a re-analysis of the deposited data

How the results depend on the processing

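Of 528 values of single genes and probes under the alternatives, 8 lost a call, each at the second ADAMDEC1 probe, and 9 gained one. Another 12 changed sign by more than the SE of the fit with 75th percentile scaling, or with a call in either fit. The other 499 kept their side of the threshold, and smaller changes of sign were counted among them, as for ADAM15 with quantile scaling (-0.02 to 0.08). The 9 gains all came with array weights, which gave 5 genes (ADAM10, ADAM11, ADAMDEC1, MMP3 and MMP15) and 11 probes of the set past the threshold, against 0 and 1. Over all probes 7.48% passed with array weights and over all genes 7.05%, against 0.172% and 0.163%. At an unadjusted p under 0.05 there were 8 genes of the set with array weights, against 4, and 30.2% of all genes, against 12%. Array weights turned ADAM8 to 0.39, ADAMTSL2 to 0.04 and MMP9 to 0.52. The cause was not tested. The count of probes past the threshold was 0 with normexp, with no filter, with all 6 arrays above background (where fewer probes are tested) and with an intensity trend. It was 0 to 1 with 1 array left out, and stayed 1 without fat-1 replicate 3 alone. The genes at an unadjusted p under 0.05 numbered 8 with no filter and 2 to 5 with 1 array left out, with 2 without fat-1 replicate 2 or wild type replicate 1. The median difference was -0.28 with normexp and ranged from -0.36 (without wild type replicate 3) to 0.15 (without wild type replicate 2). Normexp turned ADAM9 to -0.20 and ADAMTS4 to -0.27, and the mean of all probes turned ADAMTSL5 to 0.44.

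With 1 array left out, ADAM15 ranged from -0.29 to 0.40, ADAM8 from -0.31 to 0.30, ADAMTSL2 from -0.51 to 0.04 and MMP9 from -0.42 to 0.67, each highest without wild type replicate 2. ADAMTS2 ranged from -0.10 without wild type replicate 3 to 0.44, and TIMP3 from -0.27 to 0.29 without fat-1 replicate 1. The cause was not tested.

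Among the lists, counts at an unadjusted p under 0.05 were 1 for sheddase regulators with no filter (1 to 3 with 1 array left out), 1 to 5 for shed substrates with 1 array left out, 5 for activators with normexp, 0 with normexp, 3 with no filter and 1 to 3 with 1 array left out for matrix substrates, and 2 with quantile scaling, 3 with normexp, 2 with no filter and 1 to 3 with 1 array left out for other metalloproteases, whose median was 0.06 with quantile scaling and -0.11 to 0.06 with 1 array left out. With no filter 1 matrix substrate passed the threshold. Deviations of same-numbered animals correlated at 0.117, 0.185 and 0.00591, and the numbers were not taken as pairs. With the replicate number as a block, 2 matrix substrates had an unadjusted p under 0.05, against 1, and no call changed. At the looser flag 41 genes were detected in all fat-1 animals, against 27 at the stricter. The count for all wild type animals, 29 at the stricter flag, rose at the looser flag as well.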
